A study of Homo sapiens with 4 samples.

Results

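The RGS genes encode regulators of G-protein signalling, proteins that speed up GTP hydrolysis by the alpha subunits of heterotrimeric G proteins and so shorten the signal of G-protein coupled receptors. The genes described here were RGS2, RGS3, RGS4, RGS5, RGS10, RGS12, RGS14, RGS16, RGS19 and RGS20, 10 of the 19102 genes named on the array, which carried 14 probes. They were chosen by the readout itself. RGS5 was picked because its promoter was in the study's group of strong ALKBH3 binding (group I) and its signal was past the cutoffs of the comparison of the shRNAs, and the other 9 genes were set beside it by name. The values of that comparison are therefore given as a description without a test.

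PC3, a human prostate carcinoma cell line, received a lentiviral ALKBH3 shRNA, against a DNA dealkylation repair enzyme (knockdown cells), or a control shRNA, directed against GFP by the study's methods (control cells). Puromycin selection followed for 48 h or 96 h before RNA was taken, and 1 single-colour Agilent array was hybridised per shRNA and time. Each shRNA thus had 2 arrays, which differ in time, and all cells were infected and selected PC3 cells. Which of the study's ALKBH3 shRNAs this was is not given in the labels, and the spread between arrays includes the difference between the time points.

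A signal below is the log2 intensity of a probe minus the 75th percentile of its array, and a difference is a log2 difference of such signals. A probe was tested if both arrays of either shRNA had it well above background, and the probe with the highest mean signal stood for a gene. Signals of different probes were not compared, since probes differ in hybridisation strength. Each slide held the control and the knockdown array of 1 time point, so the shRNAs were compared within slides, whereas time and slide cannot be told apart. The 75th percentile of the intensity ranged from 2150 to 2394, and 67.0% to 70.9% of the probes were well above background. The ALKBH3 signal itself differed by -1.74 at 48 h and -1.51 at 96 h with ALKBH3 shRNA. Of the epithelial markers KRT8, KRT18, KRT19, EPCAM, CDH1 and CLDN4, 6 of 6 were well above background on all arrays, and KLK3, which marks prostate luminal cells, was so on 0 arrays.

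Most RGS proteins act on the Gi and Gq families of alpha subunits. RGS2, RGS3, RGS4, RGS5 and RGS16 are members of one subfamily. RGS10, RGS12 and RGS14 form another, in which RGS12 and RGS14 are large scaffold proteins, and RGS19 and RGS20 belong to a further one that acts on Gi and Gz. RGS5 is best known from pericytes and vascular smooth muscle, and the RGS4, RGS5 and RGS16 proteins are degraded through the arginine N-degron pathway. The family is concentrated on chromosome 1, where 10 of 21 RGS genes lie, among them the members RGS2, RGS4, RGS5 and RGS16.

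RGS5 occupies chr1:163142299-163321735 on the minus strand of GRCh38.p14. RGS4 is the nearest gene on one side, 65496 bases away, and NUF2, which encodes a subunit of the kinetochore NDC80 complex, begins 218 bases beyond the other end of RGS5 and is transcribed in the opposite direction. The study's list of group I promoters names both RGS5 and NUF2 without a start site, and the binding data were not analysed here. RefSeq gives 2 start windows of RGS5, each from 250 bases before to 50 bases after the start, and the starts are 118819 bases apart. Both windows are shown because they differ in composition and because the upstream one overlaps the NUF2 window over 282 of 300 bases. Capitals mark the letters GGAAGT (the core of an ETS motif) and TATATA on either strand; overlapping matches of TATATA run together.

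RGS5 upstream start, chr1:163321686-163321985, minus strand: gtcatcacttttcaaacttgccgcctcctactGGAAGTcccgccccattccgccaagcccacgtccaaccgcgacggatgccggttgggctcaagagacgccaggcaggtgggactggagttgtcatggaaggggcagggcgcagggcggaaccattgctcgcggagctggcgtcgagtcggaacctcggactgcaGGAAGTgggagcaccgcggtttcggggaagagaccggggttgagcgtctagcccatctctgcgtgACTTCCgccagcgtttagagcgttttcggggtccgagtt
RGS5 internal start, chr1:163202867-163203166, minus strand: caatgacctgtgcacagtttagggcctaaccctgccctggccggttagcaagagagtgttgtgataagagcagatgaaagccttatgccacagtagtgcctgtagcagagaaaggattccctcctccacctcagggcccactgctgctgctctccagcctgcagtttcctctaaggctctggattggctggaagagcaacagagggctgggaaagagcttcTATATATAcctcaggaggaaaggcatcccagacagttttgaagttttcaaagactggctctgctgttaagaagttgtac

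The upstream window had a GC content of 63.0% and 28 CpG dinucleotides. It held GGAAGT at 3 places, beginning 218 and 54 bases before the start and, on the opposite strand, at base 12 of the transcript. Of all 35116 RefSeq windows of this length 22.8% held GGAAGT. The GC box, GGGCGG, occurred at 2 places in the upstream window and in 45.0% of all windows. The internal window had a GC content of 51.0% and 1 CpG, and held no GGAAGT. The GC box was not found there either. Its TATATA letters began 29 and 27 bases before the start and were found in 3.99% of all windows, and it held CCAAT once, as did 34.6% of all windows. TATAAA occurred in neither window and in 11.5% of all. The median window had 14 CpG and a GC content of 58.7%. Both RGS5 probes name the same RefSeq transcript, and the tables used here do not say from which of these starts it begins.

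RGS5 was higher with ALKBH3 shRNA at both time points on both of its probes. On the brighter probe the control and knockdown cells had signals of -3.74 and -2.35 at 48 h, then -4.08 and -3.32 at 96 h. Both ALKBH3 shRNA arrays were above both control arrays, and in each shRNA the 96 h array was the lower one. These signals correspond to intensities of 161 and 449 at 48 h and 139 and 240 at 96 h, on a probe well above background on all 4 arrays. The means were -3.91 ± 0.24 in control cells and -2.83 ± 0.69 in knockdown cells (SD, n = 2). The difference was 1.39 at 48 h and 0.76 at 96 h, with a mean of 1.08 (SE 0.36), or 2.11-fold. With the time point as a block the SE was 0.17.

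The second RGS5 probe gave -3.66 in control and -2.75 in knockdown cells at 48 h, and -4.25 and -3.72 later. On this probe the groups overlapped, because the ALKBH3 shRNA array at 96 h was below the control array at 48 h. Its difference was 0.92 at 48 h and 0.53 at 96 h, with a mean of 0.72 (1.65-fold), which is under 2-fold. RGS5 ranked 168 of 14556 genes by its rise, among 201 genes with a rise of 2-fold or more. At the 2-fold limit, NPR3 (1.008) and SYCE3 (1.002) lay just inside, and FGF13 (0.999) and UCN2 (0.997) lay just outside. Without the ALKBH3 shRNA array at 48 h the RGS5 difference was 0.59, and normexp background correction gave 0.71.

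**Figure D1:**
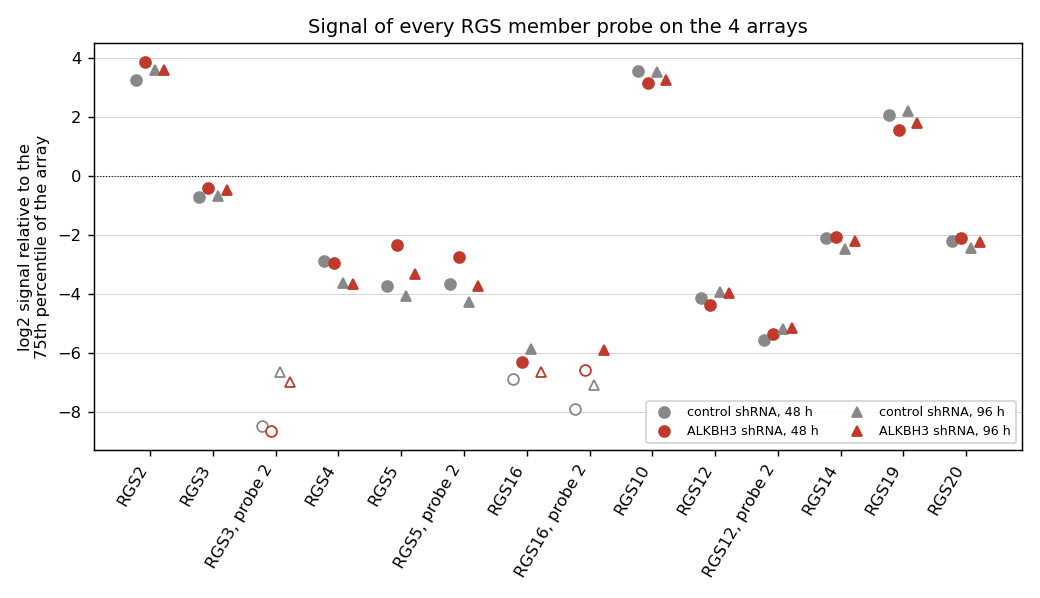
Log2 signal relative to the 75th percentile of the array (y axis) for all 14 probes of the RGS members (x axis) on the 4 arrays; grey is control shRNA, red ALKBH3 shRNA, circles 48 h, triangles 96 h, and open symbols were not well above background. The red symbols of the first RGS5 probe (-2.35 and -3.32) lie above its grey symbols (-3.74 and -4.08), whereas the RGS4 symbols separate by time. Heights of different probes are not comparable.

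RGS2, a regulator with a preference for Gq, had 10 spots on each array, whose SD was between 0.051 and 0.086. At 48 h its signal was 3.23 in control and 3.85 in knockdown cells, and at 96 h it was 3.59 and 3.58. The difference was thus 0.63 at 48 h and -0.01 at 96 h. The groups overlapped, and the highest of the 4 values was that of ALKBH3 shRNA at 48 h. RGS3, which acts on Gi and Gq, read -0.70 (control) and -0.42 (knockdown) at 48 h and -0.69 and -0.48 at 96 h. It was higher in the knockdown cells by 0.28 and 0.22, without overlap of the groups. A second RGS3 probe, for another transcript, was well above background on 0 arrays.

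RGS4, the gene beside RGS5 and of the same subfamily, had a signal of -2.88 in control cells and -2.96 in knockdown cells at 48 h, and of -3.63 and -3.65 at 96 h. Its differences between the shRNAs were -0.08 and -0.02, while RGS5 differed by 1.39 and 0.76. RGS16 was not tested. Its 2 probes were well above background on 2 arrays and on 1 array, which were the ALKBH3 shRNA array at 48 h and the control array at 96 h for the first probe and the ALKBH3 shRNA array at 96 h for the other. The first RGS16 probe read -6.85, -6.29, -5.85 and -6.64, and the other -7.89, -6.57, -7.07 and -5.90, each time control before knockdown and 48 h before 96 h. No fold is given for RGS16.

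RGS10 and RGS19 were lower with ALKBH3 shRNA at both time points. RGS10, a small protein that acts on Gi, read 3.54 (control) and 3.12 (knockdown) at 48 h and 3.50 and 3.25 at 96 h, which gives differences of -0.41 and -0.25. RGS19, also known as GAIP, read 2.05 and 1.56 at 48 h and 2.19 and 1.80 at 96 h, which gives -0.49 and -0.38. In both genes the control arrays lay above the ALKBH3 shRNA arrays without overlap. The mean differences were -0.33 (SE 0.12) for RGS10 and -0.44 (SE 0.14) for RGS19, or 1.26-fold and 1.35-fold lower.

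The remaining members showed small differences and overlapping groups. RGS14 had signals of -2.09 (control) and -2.07 (knockdown) at 48 h and of -2.49 and -2.19 at 96 h. RGS20, or RGSZ1, read -2.21 and -2.11 at 48 h and -2.45 and -2.24 at 96 h. Both were higher with ALKBH3 shRNA at each time point, by 0.02 and 0.30 for RGS14 and by 0.10 and 0.21 for RGS20. RGS12 read -4.15 and -4.38 at 48 h and -3.94 and -3.96 at 96 h on its brighter probe. The other RGS12 probe, for another transcript, read -5.55 and -5.36 at 48 h and -5.18 and -5.14 at 96 h. The RGS12 probes disagreed in direction, with mean differences of -0.13 and 0.12.

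**Figure D2:**
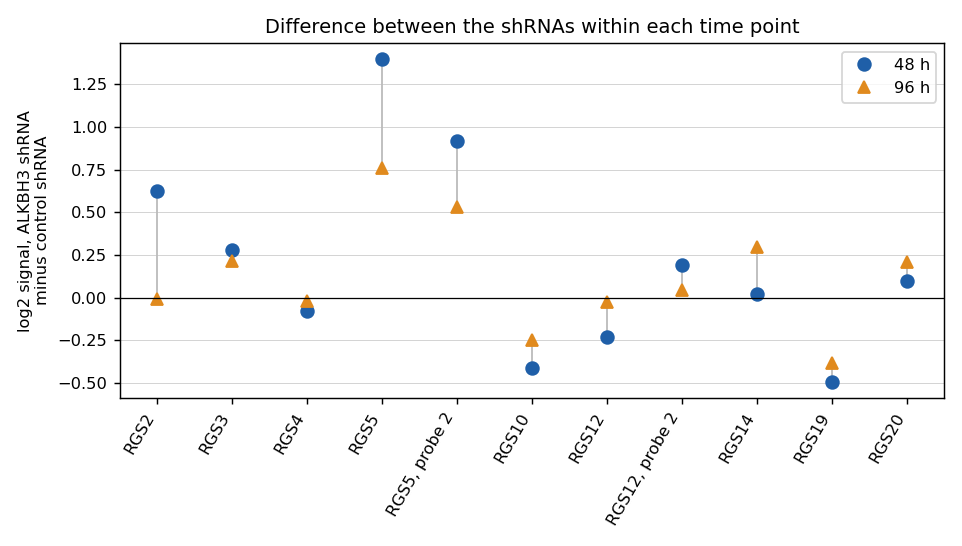
Log2 signal with ALKBH3 shRNA minus control shRNA (y axis) for the 11 tested probes of the RGS members (x axis), at 48 h (blue circles) and 96 h (orange triangles); each point compares 1 array with 1 array. The highest point is RGS5 at 48 h (1.39), RGS2 lies at 0.63 and -0.01, and RGS10 and RGS19 lie below 0 at both time points.

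Of the 9 members tested, 1 (RGS5) was past the cutoffs of the study, 2-fold with p under 0.05 before adjustment, as a rise, and 0 as a fall. Over all 14556 genes tested, 1.04% passed these cutoffs as a rise and 0.234% as a fall. The 2 arrays of one shRNA did not overlap those of the other for 4 members, namely RGS3, RGS5, RGS10 and RGS19, against 36.4% of all genes. Because the members were chosen with this contrast, nothing is read from these counts. The median difference was 0.15 over the 9 members and 0.05 over the 8 other than RGS5, and over all genes it was 0.00. For scale, the median size of the difference over all genes was 0.145 at 48 h and 0.140 at 96 h.

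RGS4 fell between 48 h and 96 h. This contrast was not used to choose the members and was fitted with the shRNA as a term. The difference, 96 h minus 48 h, was -0.75 in control and -0.69 in knockdown cells, with a mean of -0.72 (SE 0.077), or 1.65-fold lower (limma adjusted p = 0.0239). RGS4 was the only one of the 9 members tested that passed the adjusted p, while 12.8% of all genes did. The call did not hold without the shRNA term (adjusted p = 0.131) or without the filter on dim probes (0.124). Without that term limma passed 0 of the 14556 genes, of which 2678 had an unadjusted p below 0.05.

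RGS5 differed in the same direction as RGS4, by -0.34 with control shRNA and -0.97 with ALKBH3 shRNA, and its mean difference of -0.65 (SE 0.17) did not pass (limma adjusted p = 0.0758). It passed after normexp background correction (limma adjusted p = 0.00885), where the difference was -0.37. The second RGS5 probe differed by -0.59 and -0.97. RGS12 was higher at 96 h by 0.21 with control shRNA and 0.41 with ALKBH3 shRNA, and RGS19 by 0.14 and 0.25. RGS14 was lower by 0.39 and 0.12 in the same order, and RGS20 by 0.24 and 0.13. None of these 4 passed, with limma adjusted p-values of 0.0908 for RGS12, 0.174 for RGS19, 0.161 for RGS14 and 0.184 for RGS20. These calls depended on the processing. RGS14 and RGS19 each passed in 3 alternatives and RGS12 in 2, all among the normexp settings and the authors' values. RGS20 did not pass in any of the 10 alternatives fitted. RGS2 differed by 0.37 with control shRNA and -0.27 with ALKBH3 shRNA. RGS3 and RGS10 had mean differences of -0.02 and 0.05.

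**Figure D3:**
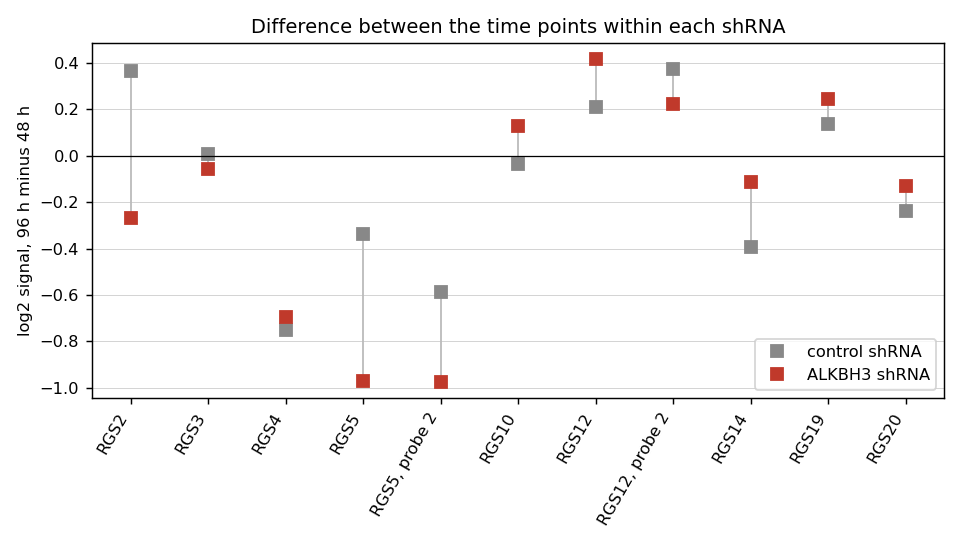
Log2 signal at 96 h minus 48 h (y axis) for the 11 tested probes of the RGS members (x axis), with control shRNA (grey) and ALKBH3 shRNA (red); each point compares 1 array with 1 array. RGS4 lies at -0.75 and -0.69, RGS5 at -0.34 and -0.97, and RGS2 on both sides of 0.

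On either side of RGS5, the differences between the shRNAs were at most 0.08 in size at each time point. NUF2 stood at -0.10 (control) and -0.18 (knockdown) at 48 h and at 0.47 and 0.45 at 96 h. Its differences between the shRNAs were -0.08 and -0.02 (limma unadjusted p = 0.887). NUF2 rose between 48 h and 96 h by 0.57 with control shRNA and 0.63 with ALKBH3 shRNA, with a mean of 0.60 (SE 0.077, limma adjusted p = 0.0270), whereas RGS5 was lower at 96 h with both. The other subunits NDC80, SPC24 and SPC25 also rose with time, so that 4 of 4 genes of the NDC80 complex passed the adjusted p (median difference 0.68), against 12.8% of all genes. Without the shRNA term 0 of these 4 passed, with limma adjusted p-values from 0.131 to 0.154. Within 1000 kb of the upstream RGS5 start 8 other genes were tested, with mean differences between the shRNAs from -0.07 to 0.33.

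**Figure D4:**
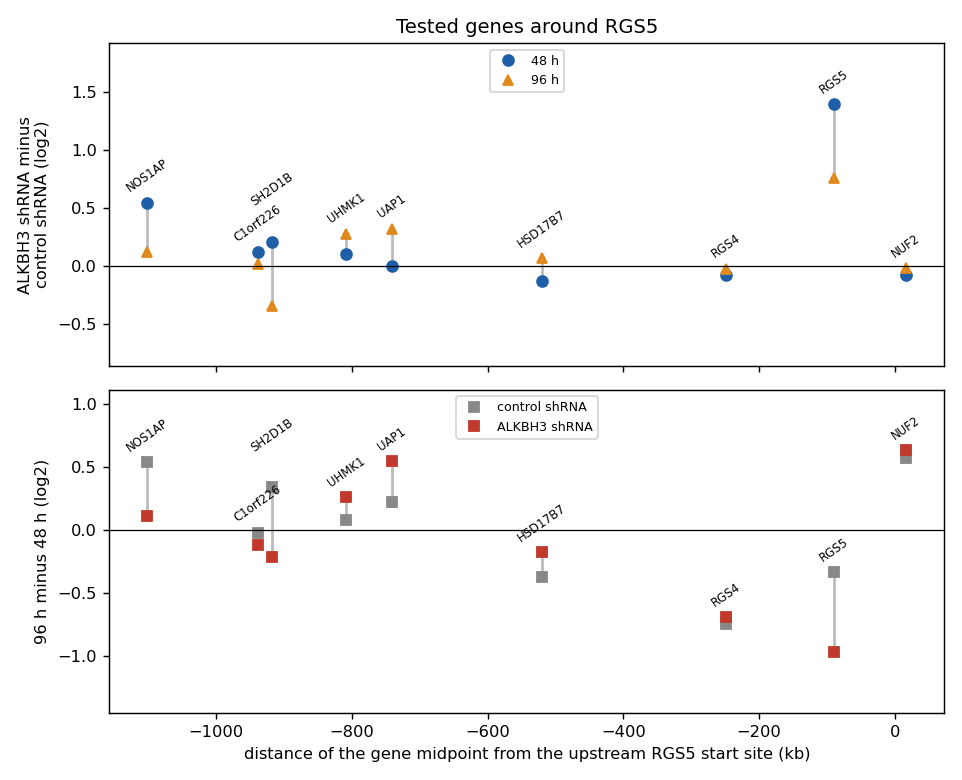
Differences of the tested genes around RGS5 against the distance of the gene midpoint from the upstream RGS5 start in kb (x axis); the upper panel gives ALKBH3 shRNA minus control shRNA at 48 h and 96 h and the lower panel 96 h minus 48 h with each shRNA, both in log2 units with 1 array on each side of a difference. RGS4 and NUF2 lie near 0 in the upper panel, where RGS5 reaches 1.39, and lie at opposite sides of 0 in the lower panel.

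Most other RGS genes were at or near background. Of the 11 others, 5 were tested, and RGS1, RGS6, RGS7, RGS13, RGS18 and RGS21 were not well above background on any array. Among the 5, 0 passed the cutoffs in either direction, beside 1.04% of all genes as a rise and 0.234% as a fall. RGS17, which is related to RGS20, read -2.42 (control) and -2.83 (knockdown) at 48 h and -2.17 and -3.02 at 96 h, a mean difference of -0.63 (limma unadjusted p = 0.0107, adjusted p = 0.412). RGS22, expressed mainly in testis, was not well above background on both control arrays and was so on both ALKBH3 shRNA arrays. Its measured signals were -7.49 (control) and -6.28 (knockdown) at 48 h and -6.22 and -5.60 at 96 h. The groups overlapped, because the ALKBH3 shRNA array at 48 h was below the control array at 96 h. Under the alternatives other than leaving out an array, the measured RGS22 difference ranged from 0.25 to 0.93. Setting each control array at the lowest signal well above background on it, or at the probe's own signal if higher, gave a 1.51-fold rise. This value holds for the scaling used here and is not a lower limit. On the control array at 96 h the probe, at -6.22, was above that lowest signal, -6.50, and still not well above background. RGS22 entered the test only through the ALKBH3 shRNA arrays, and its p (limma adjusted p = 0.741) is not read.

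RGS9, known from retinal photoreceptors and striatum, read -3.84 and -4.33 at 48 h and -5.82 and -5.34 at 96 h. It fell with time, by 1.98 in control and 1.01 in knockdown cells on the log2 scale (limma adjusted p = 0.0355, or 0.132 without the shRNA term), and its shRNA differences had opposite signs at the time points, -0.49 and 0.48. No time difference is given for RGS22, since neither control array measured it above background. RGS8 and RGS11 differed by 0.05 and -0.03 between the shRNAs and passed neither contrast.

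The pathway around the RGS proteins was described with lists of receptors, G-protein subunits, modifiers of the alpha subunits, effectors, other proteins with an RGS domain, genes of the arginine N-degron pathway and the NDC80 complex. With the other RGS genes, these lists held 152 genes, of which 118 were tested. ADRB1, the beta-1 adrenergic receptor, was the 1 gene past the cutoffs as a rise, and 0 were past them as a fall. Over all genes 1.04% passed as a rise and 0.234% as a fall. The median difference was -0.04, against 0.00 over all genes. An unadjusted p below 0.05 was found for 12 of the 118 genes, and an adjusted p below 0.05 for 0 by limma. Over all 14556 genes these counts were 1213 and 0.

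Among 27 receptors tested, ADRB1 read -5.01 (control) and -3.83 (knockdown) at 48 h and -5.26 and -4.24 at 96 h. Its difference was 1.17 and 1.02, with a mean of 1.10 (SE 0.19, limma unadjusted p = 0.00332, adjusted p = 0.348). The ADRB1 difference was under 2-fold in 5 alternatives, which were both normexp settings (0.65), the authors' values (0.89), and leaving out the ALKBH3 shRNA array at 48 h (0.89) or the control array at 96 h (0.97). The receptor with the largest decrease was ADRA1B, the alpha-1B adrenergic receptor, which read -2.64 and -3.51 at 48 h and -3.58 and -4.27 at 96 h, a mean difference of -0.78 (limma unadjusted p = 0.130). Without the control array at 96 h, which leaves 1 control array, the ADRA1B difference was -1.25, and the spread then comes from the ALKBH3 shRNA arrays alone. With the time point as a block, 7 of the 118 genes passed the adjusted p, against 4.46% of all genes. These were the receptors ADRB1 (limma adjusted p = 0.0264), CXCR4 (0.57) and F2RL2 (0.61), which were higher, the receptors ADRA1B, F2RL1 (-0.74) and NTSR1 (-0.75), which were lower, and the phosphodiesterase PDE4A (0.56), where the other values in brackets are log2 differences. F2RL1 and F2RL2 are protease-activated receptors, NTSR1 is a neurotensin receptor that couples mainly to Gq, and CXCR4 is a Gi-coupled chemokine receptor. CXCR4, F2RL1, F2RL2, NTSR1 and PDE4A are named here because they passed this fit.

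The subunits on which RGS proteins act, their modifiers and the effectors are described by counts and ranges. Over all genes 1.04% passed the cutoffs as a rise and 0.234% as a fall. At these shares a count of 0 in a list of this length is not read as a result. Of 11 alpha subunits tested 0 passed the cutoffs, and their differences ranged from -0.27 for GNA14 to 0.42 for GNAT2. Of 13 beta and gamma subunits 0 passed, with the range from -0.34 for GNG11 to 0.37 for GNB4. Of 10 modifiers of the alpha subunits 0 passed, with CAV1 at 0.39 and RGS7BP at -0.37 as the extremes. Of 25 effectors 0 passed. The adenylyl cyclase ADCY7 was the extreme rise at 0.73 (limma unadjusted p = 0.00702, adjusted p = 0.376) and ADCY9 the extreme decrease at -0.40 (limma unadjusted p = 0.0193, adjusted p = 0.481).

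Of 12 other genes with an RGS domain 0 passed the cutoffs, beside 1.04% of all genes as a rise and 0.234% as a fall. The mean difference was below 0 for 10 of the 12, beside 7370 of all 14556 genes, and this count was not tested. Among the 12 it ranged from -0.49 for GRK4 to 0.06 for AXIN2, which differed by -0.06 at 48 h and 0.18 at 96 h. GRK6, at 0.02, was the 1 gene of this list higher at both time points. Of 11 arginine N-degron genes 0 passed the cutoffs, from UBE2A at -0.26 to KCMF1 at 0.17. At the limma adjusted p, 9 of the 118 pathway genes were higher and 10 lower at 96 h than at 48 h. Over all genes 12.8% passed. The 9 include RGS22, which neither control array measured above background, and its time difference is not read. Without the shRNA term 0 of the 118 genes passed.

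**Figure D5:**
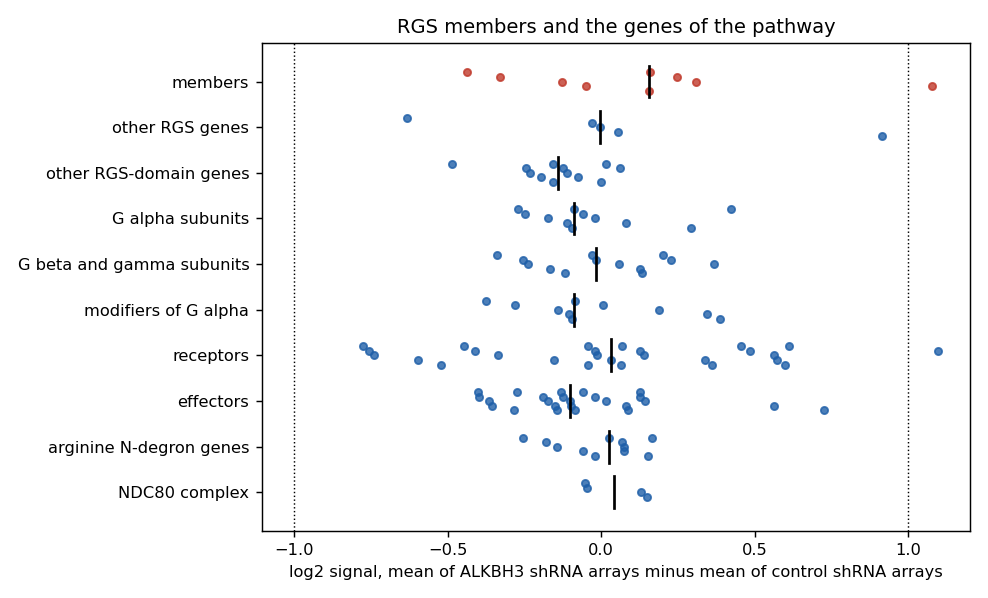
Log2 signal, mean of the 2 ALKBH3 shRNA arrays minus mean of the 2 control arrays (x axis), for each tested gene of the RGS members (red) and the pathway lists (blue); black bars are medians and dotted lines mark a 2-fold change. RGS5 at 1.08 and ADRB1 at 1.10 are the points beyond the dotted lines.

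Markers of the cells in which RGS5 is best known were compared as well. Of 10 pericyte and smooth muscle markers 7 were well above background on all arrays, and PDGFRB, ABCC9 and MYH11 were so on 0. Their summed signal, relative to the 75th percentile on the linear scale, was 3.86 and 3.81 on the control arrays and 5.29 and 5.30 on the ALKBH3 shRNA arrays. Much of this sum was 1 bright probe, that of MCAM, at 2.6 and 2.77 on the control arrays and 3.83 and 4.09 on the ALKBH3 shRNA arrays. MCAM differed by 0.56 and KCNJ8 by 0.50 with ALKBH3 shRNA (limma unadjusted p = 0.00671 and 0.00802, adjusted p = 0.371 and 0.390). CSPG4 differed by 0.80 (limma unadjusted p = 0.0683, adjusted p = 0.643), and NOTCH3, ACTA2, DES and TAGLN by 0.09, -0.14, -0.02 and 0.00. Of the epithelial markers, EPCAM differed by 0.98, CDH1 by 0.74, CLDN4 by 0.13, KRT8 by 0.03, KRT18 by -0.07 and KRT19 by -0.18. The summed signal of 4 leukocyte markers was 0.190 to 0.205 on every array. That of 4 endothelial markers was 0.843 and 0.897 on the control arrays and 0.563 and 0.494 on the ALKBH3 shRNA arrays. Most of the endothelial sum was 1 probe, that of KDR, which differed by -0.86 with ALKBH3 shRNA. PECAM1 differed by -0.59 and CDH5 by -0.20, whereas VWF differed by 0.29. The part of all these markers in the RGS5 difference was not tested.

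The genes whose pattern over the 4 arrays was nearest to that of RGS5 were taken from 14020 genes well above background on all arrays, by the Euclidean distance of the signals after subtracting the mean of each gene. They were CYP2J2 (distance 0.122), a cytochrome P450 epoxygenase, LGALS3BP (0.142), a secreted galectin-binding glycoprotein, PARP12 (0.142), a mono-ADP-ribosyltransferase, the pseudogene IFITM4P (0.175), and IL22RA1 (0.192), a subunit of the interleukin-22 receptor. Their differences with ALKBH3 shRNA were 1.39 to 1.66 at 48 h and 0.61 to 0.85 at 96 h. IFITM4P belongs to a family of near-identical sequences, so its probe can bind RNA of other members. The likeness is over 4 arrays only and is a description.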

How the data were processed

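For each array the authors deposited Agilent Feature Extraction (10.7.3.1 in the file headers) intensity values, background-subtracted on that array without normalization between arrays, and a table of log2 values normalized between arrays with limma, which served as an alternative. Control, non-uniform and outlier spots were left out, log2 intensity was centred on the 75th percentile of each array, and spots of a probe were averaged. Probes were named through RefSeq transcripts of GRCh38.p14, since no gene name column was used. Probes were tested where at least 0.5 of their spots were well above background on both arrays of 1 shRNA. limma 3.58.1 in R 4.3.3 compared the shRNAs without a covariate and 96 h with 48 h beside an shRNA term, with Benjamini-Hochberg adjustment over 14556 genes. The labels do not say whether the arrays came from separate cultures, so p-values measure only the spread between these arrays, whose number limits precision. The steps were tested on simulated data. Members and lists were chosen with earlier results of these data known. Named were all members, other RGS genes, neighbours of RGS5, pathway genes past the cutoffs or with the largest rise or fall of a list (same direction at both time points), and the 5 patterns nearest to RGS5. Alternatives were other background corrections, scalings, filters and probe rules, the authors' values, the time block, the unpaired Student test of each gene, and leaving out each array.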

Additional observations from a re-analysis of the deposited data

Results flagged for a closer look

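RGS2, well above background on all arrays, was higher with ALKBH3 shRNA at 48 h and not at 96 h (0.63 and -0.01), so that the difference at 48 h exceeded that at 96 h by 0.64. Seen as a change from 48 h to 96 h, RGS2 moved by 0.37 with control shRNA and by -0.27 with ALKBH3 shRNA, and the latter minus the former was -0.64. RGS10 moved by -0.04 with control shRNA and 0.13 with ALKBH3 shRNA, which differ by 0.17. RGS3 moved by 0.01 and -0.06, which differ by -0.064. These were singled out because the arrays moved in opposite directions, with 1 array for each combination, and the differences between the effects were not tested.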

How the results depend on the processing

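RGS5 stayed higher with ALKBH3 shRNA under every alternative run, from 0.71 (both normexp settings) to 1.09, with 0.72 on its other probe, an alternative chosen after seeing the data, 0.86 in the authors' values and 0.59 to 1.56 when 1 array was left out. It was the 1 member past the cutoffs, and 0 were past them with normexp, normexp and quantile normalization, the authors' values, the mean over probes or the unpaired Student test, and 0 to 1 when an array was left out (0 without the 48 h ALKBH3 or the 96 h control array). Pathway genes past the cutoffs numbered 0 with normexp, normexp and quantile normalization and the authors' values, 2 without a filter on dim probes, and 1 to 2 when an array was left out (2 without the 96 h control array, 1 of them RGS22, for which the remaining control array was not well above background; a lone array is assumed to vary like the other group). For 96 h against 48 h, 4 members passed the adjusted p with normexp, 5 with normexp and quantile normalization, 4 with the authors' values, and 0 without a filter, without the shRNA term, or with a 2-fold change and an unadjusted p. RGS4 was lower at 96 h in all 10 alternatives fitted, by -0.72 to -0.52. Near 0, the time difference of RGS10 turned to -0.11 (normexp), -0.10 (normexp and quantile) and -0.10 (authors' values), that of RGS3 to 0.029, 0.042 and 0.043 under the same settings and 0.031 on median centring, and the shRNA difference of GRK6 to -0.071, -0.065, -0.066 and -0.014 in the same order. Leaving out an array gave -0.051 to 0.081 for GRK6, -0.30 to 0.60 for SPC25 and -0.27 to 0.17 for NDC80, which change sign. The causes were not tested. The time point as a replicate block left the counts past the cutoffs at 1 member and 1 pathway gene, with the RGS5 difference at 1.08. With 4 arrays and 3 coefficients, no array could be left out of the time comparison. RGS5 was dim, and RGS16 was well above background on too few arrays to be tested.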
